A study of Homo sapiens with 8 samples.

Results

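The genes that make cholesterol and fatty acids under the control of the sterol regulatory element-binding proteins (SREBPs) were examined in Caco-2 cells with and without Siglec-XII, the sialic acid-binding immunoglobulin-like lectin encoded by SIGLEC12. A fixed set of 32 gene symbols was looked up in the expression table of 63816 entries, and where a symbol stood on more than 1 entry the entry with the highest mean was taken. The set held 18 enzymes of the sterol branch, 7 enzymes of the fatty acid branch, 5 genes of the SREBP machinery and 2 genes of cholesterol transport, and all 32 symbols were found. Caco-2 is an established line from a human colorectal adenocarcinoma, labelled as not expressing Siglec-XII before transfection. Of the 8 RNA-seq libraries, 4 came from cells stably transfected with empty pcDNA3.1(-) (empty vector) and 4 from cells stably transfected with hSIGLEC12-pcDNA3.1 (Siglec-XII), both selected with G418 and with no further treatment named. The labels speak of stable clones and of fewer cultures than libraries, and the study's methods of technical replicate libraries, so p-values measure only the spread between these libraries. Each group went through its own transfection and selection, and a difference between the groups cannot be told apart from a difference between the selected cells.

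SREBPs are transcription factors made as membrane proteins of the endoplasmic reticulum, where SCAP carries them and INSIG proteins hold the complex back while sterols are plentiful. When membrane cholesterol falls, SCAP brings the SREBP to the Golgi apparatus, proteases release its DNA-binding part, and this part enters the nucleus and binds promoters together with partner factors such as NF-Y, which reads CCAAT boxes, and Sp1, which reads GC boxes. SREBP-2, from SREBF2, acts mainly on the genes of cholesterol synthesis and uptake, and SREBP-1c, a product of SREBF1, mainly on those of fatty acid synthesis, and intestinal epithelium both makes and absorbs cholesterol.

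The promoters were searched for the letters such factors read, in windows from 250 bases before to 50 bases after each annotated start (RefSeq, GRCh38.p14). Of the 32 genes, 28 were in the promoter table. The palindromic E-box TCACGTGA was found in 1 of them (3.57%), INSIG1. It was in 1.18% of the 27305 genes of the table and 2.32% of those tested for expression. The sterol regulatory element TCACNCCAC was also found in 1 (3.57%), SREBF2, against 1.39% of all genes and 1.54% of the tested ones. CCAAT was present in 20 of the 28 (71.4%) against 39.7% of all genes and 43.2% of the genes of the table that were tested for expression, and it was present in 13 of 15 sterol genes and 4 of 6 fatty acid genes. GGGCGG was present in 27 of the 28 (96.4%) against 48.3% of all genes and 78.3% of the tested ones. Both strands were searched, a gene counted when any of its windows held the letters, and no match printed here overlapped another motif. A match is only a run of letters, and its absence says only that the letters are not in the window. The 250 bases before the start are given, on the plus strand, for SCD, the gene of the set that passed the test, for FDPS, a sterol gene whose groups did not overlap, for SC5D, the gene with the lowest difference, and for the holders of the E-box and the sterol regulatory element, with CCAAT (or ATTGG, its reverse complement), TCACGTGA and TCACCCCAC in capitals.
SCD chr10:100346983-100347232: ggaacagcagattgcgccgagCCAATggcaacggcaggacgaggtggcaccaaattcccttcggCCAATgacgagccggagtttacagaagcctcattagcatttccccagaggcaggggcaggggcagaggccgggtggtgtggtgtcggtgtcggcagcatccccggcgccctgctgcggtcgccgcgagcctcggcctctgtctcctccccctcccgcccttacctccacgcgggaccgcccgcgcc
FDPS chr1:155308616-155308865: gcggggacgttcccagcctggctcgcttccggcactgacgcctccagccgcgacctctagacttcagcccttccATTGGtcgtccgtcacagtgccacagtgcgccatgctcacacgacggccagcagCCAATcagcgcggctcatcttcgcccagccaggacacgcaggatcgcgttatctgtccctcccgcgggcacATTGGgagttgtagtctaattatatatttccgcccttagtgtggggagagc
SC5D chr11:121292602-121292851: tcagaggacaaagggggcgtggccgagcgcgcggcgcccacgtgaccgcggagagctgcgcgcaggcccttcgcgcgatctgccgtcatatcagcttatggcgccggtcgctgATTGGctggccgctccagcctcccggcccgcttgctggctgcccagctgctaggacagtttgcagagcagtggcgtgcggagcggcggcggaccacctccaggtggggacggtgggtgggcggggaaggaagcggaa
INSIG1 chr7:155297628-155297877: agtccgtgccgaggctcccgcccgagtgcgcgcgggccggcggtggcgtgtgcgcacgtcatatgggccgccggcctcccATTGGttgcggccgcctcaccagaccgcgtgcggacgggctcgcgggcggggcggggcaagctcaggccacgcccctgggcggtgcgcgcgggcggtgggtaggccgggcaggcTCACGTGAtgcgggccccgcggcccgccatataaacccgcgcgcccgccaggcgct
SREBF2 chr22:41832855-41833104: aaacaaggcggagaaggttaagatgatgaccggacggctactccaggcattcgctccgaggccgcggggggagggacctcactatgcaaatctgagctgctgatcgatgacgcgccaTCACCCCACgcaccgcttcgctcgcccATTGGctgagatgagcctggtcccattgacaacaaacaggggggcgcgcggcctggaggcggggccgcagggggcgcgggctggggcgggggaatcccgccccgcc
The first base of the E-box of INSIG1 stood at position -56 from the annotated start and that of the element of SREBF2 at position -133. SCD held CCAAT at positions -229 and -186, and FDPS held 3 such boxes.

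SIGLEC12 itself was listed at 0.0399 to 0.122 TPM (transcripts per 1000000 transcripts) in the empty vector libraries and at 1582 to 1734 TPM in the Siglec-XII libraries, a difference that reached the smallest p the exact permutation test could give (two-sided p = 0.0286, 70 labellings). The cell line label was set against marker genes. CDX1 (139 and 156 TPM on average in empty vector and Siglec-XII) and CDX2 (37.3 and 43.9 TPM) were present, but 6 of 11 colon epithelium markers stayed under 1 TPM in all 8 libraries and KRT20 and FABP1 were listed at 0. All 5 general epithelium markers were expressed, among them EPCAM and KRT8. Of the 12 trophoblast markers 11 passed the filter, with GATA3 (402 and 359 TPM) and HSD3B1 (344 and 345 TPM) the highest. CGA (0.982 and 0.588 TPM), ERVW-1 (1.40 and 1.40 TPM), ERVFRD-1 (1.33 and 1.12 TPM) and PSG1 (1.35 and 1.09 TPM) lay near the filter, and LEP did not pass it. The summed level of the trophoblast markers overlapped between the groups (1221 to 1376 TPM against 1253 to 1346 TPM). That of the 5 fibroblast markers did not (62.4 to 75.03 TPM against 76.4 to 82.8 TPM), with THY1 at 0, nor did that of the colon markers (164 to 187 TPM against 191 to 216 TPM) or of the general epithelium markers (8257 to 9230 TPM against 9840 to 10217 TPM). The 4 hepatocyte markers stayed under 1 TPM and ALB was listed at 0. Mitochondrially encoded genes took 7.92% to 11.2% of TPM in the empty vector libraries and 6.67% to 9.97% in the Siglec-XII libraries. The part of these markers and shares in the differences given here was not tested.

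All 32 genes were expressed. SCD, the stearoyl-CoA desaturase that makes oleate, had the highest level of the set, followed by FADS2 (254 TPM in empty vector), the delta-6 desaturase of polyunsaturated fatty acids, and DHCR7 (219 TPM), the last enzyme of cholesterol synthesis in the set. INSIG2 (11.4 TPM) and NPC1 (13.3 TPM) had the lowest levels. In the sterol branch the levels in empty vector ran from 18.6 TPM for PMVK to 219 TPM for DHCR7, and in the fatty acid branch from 21.5 TPM for the chosen ACACA entry to 313 TPM for SCD. Together the 32 genes took 0.284% ± 0.0112 of all TPM in the empty vector libraries and 0.313% ± 0.00863 in the Siglec-XII libraries (SD, n = 4 each). The shares did not overlap (0.269% to 0.296% against 0.305% to 0.324%). The mean log2 deviation of the 32 genes from their own means did overlap once each library's median over all tested entries was subtracted. It ran from -0.053 to -0.0047 in empty vector and from -0.012 to 0.061 in Siglec-XII.

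**Figure D1:**
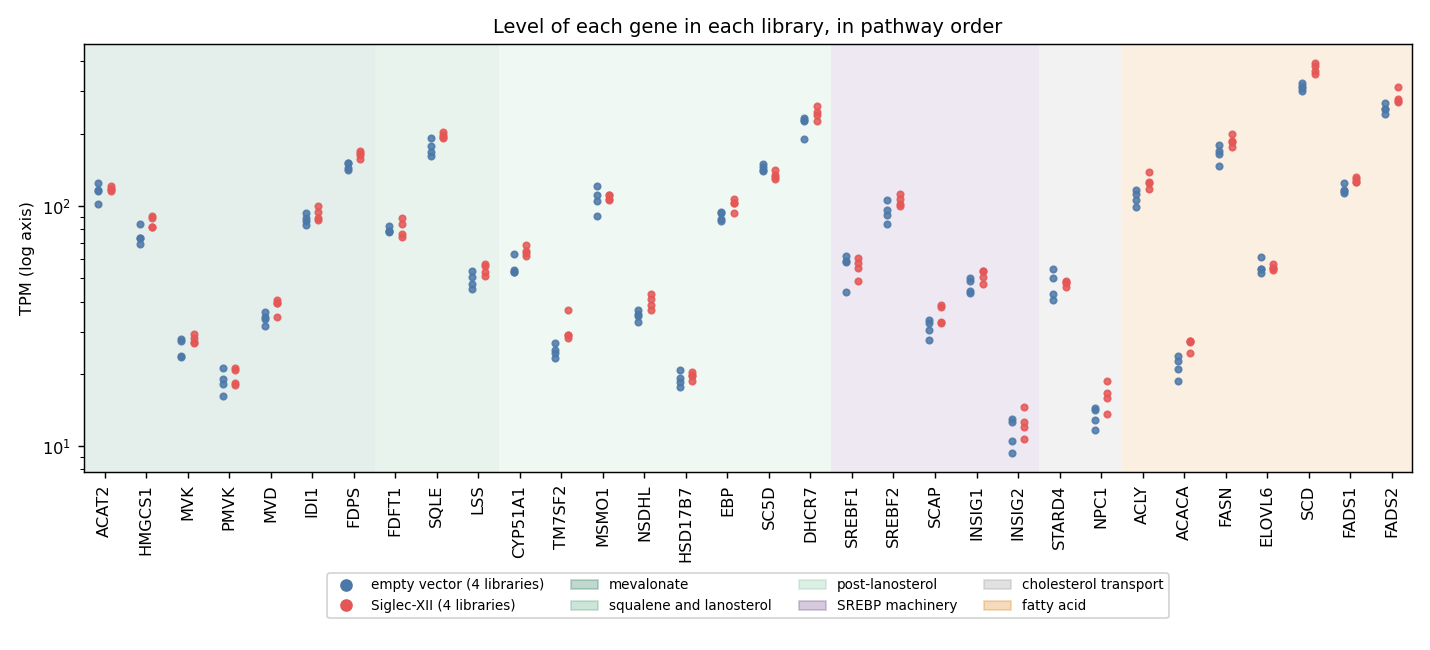
Level of each of the 32 genes in each of the 8 libraries, in TPM on a log axis, with the genes in pathway order and background shading for their role. Blue points are the 4 empty vector libraries and red points the 4 Siglec-XII libraries. In most genes the red points sit slightly higher, with the groups apart in 7 genes. Of all tested entries, 68.1% were higher in Siglec-XII and 9.17% were higher without overlap.

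Small differences in one direction were seen across the set. The fitted log2 level, log2(TPM + 1), was higher in Siglec-XII than in empty vector in 29 of the 32 genes, where 68.1% of all 15590 tested entries were also higher, and lower in SC5D, SREBF1 and ELOVL6. The median log2 difference was 0.15 for the set against 0.067 for all tested entries, and 24 of the 32 genes lay above the latter value. After adjustment over all tested entries (limma, Benjamini-Hochberg), 1 gene was called higher, SCD, where 0.34% of all tested entries were called higher, and 0 were called lower, where 0.308% of all were. At an unadjusted limma p of 0.05 or less, 16 genes were higher and 0 lower, against 13.9% and 2.61% of all tested entries. The libraries did not overlap between the groups in 7 genes, all higher in Siglec-XII (FDPS, TM7SF2, ACLY, ACACA, SCD, FADS1 and FADS2), and in 0 genes lower, against 9.17% and 1.68% of all tested entries. These shares include weak entries. Of the 10981 entries with a mean of at least 5 TPM, 70.7% were higher, 17.4% at the unadjusted limit and 11.4% without overlap. The 32 genes were all among them, with the same counts of 29, 16 and 7. No gene reached the 2-fold change that the study used as a limit, and the largest difference, that of the chosen ACACA entry, came to 23.0%. With both ACACA entries added its groups overlapped and its log2 difference was 0.16, below the 0.28 of TM7SF2. In bulk RNA, a change in the share of cells that express a gene and a change of its RNA per cell cannot be told apart.

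Without empty vector replicate 2, in which many sterol genes were high, 14 genes were higher without overlap where 16.9% of all tested entries were, and 19 were higher at the unadjusted limit where 16.7% of all were. Without Siglec-XII replicate 1, 11 were higher without overlap where 11.8% of all were. Part of the count depended on the scaling of the libraries. With quantile normalization 24 of the 32 genes were higher where 52.9% of all entries were, 8 were higher and 1 (SC5D) lower at the unadjusted limit where 7.02% and 5.63% of all entries were, and the median of all entries was 0.0095.

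**Figure D2:**
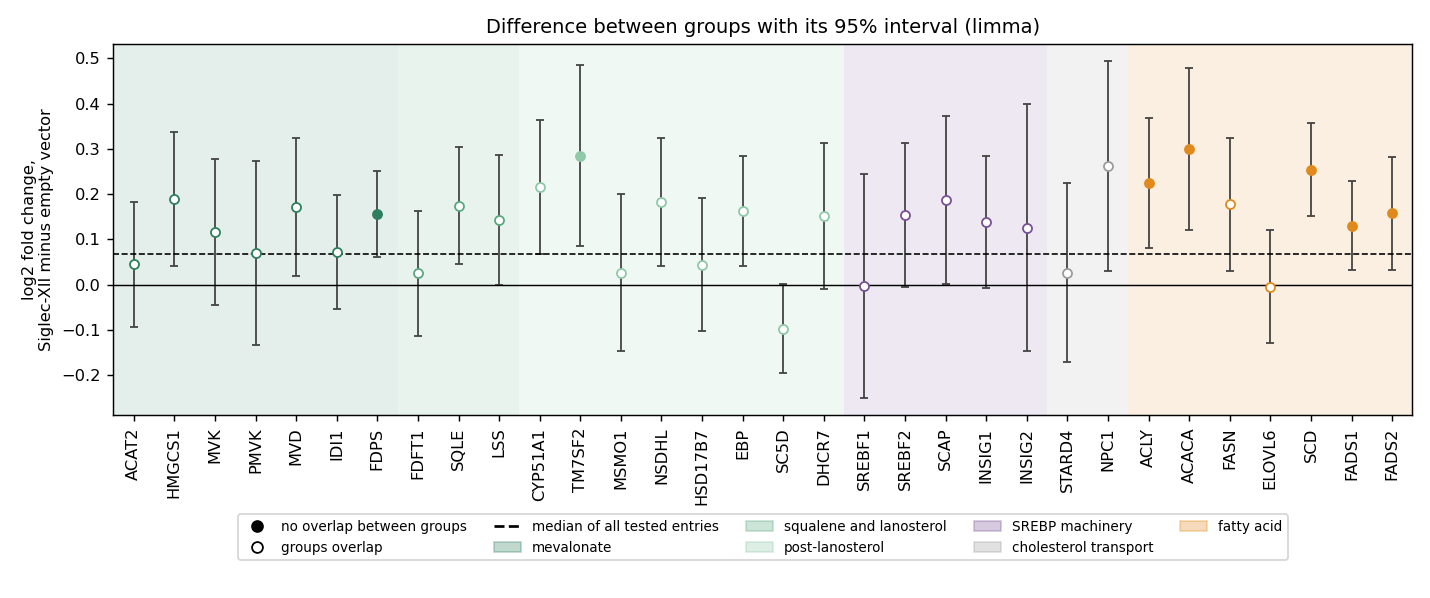
Log2 difference (Siglec-XII minus empty vector) of each gene with its 95% interval from limma, in pathway order. Filled points are the 7 genes whose groups did not overlap, where 9.17% of all tested entries were higher without overlap. In the fatty acid branch 5 points are filled, among them the chosen ACACA entry, whose groups overlapped with both entries added. The dashed line is the median of all tested entries at 0.067.

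The sterol branch starts with the mevalonate pathway, which turns acetyl-CoA into the isoprenoid units that all sterols are built from. All 7 genes of this stretch had a positive difference, with a median of 0.12, although that of ACAT2 turned negative under quantile normalization, equal upper quartiles, removal of the trend with transcript length and without empty vector replicate 1, and that of IDI1 when the length trend was removed. None passed the adjusted test, and 3 (HMGCS1, MVD and FDPS) were at or under an unadjusted p of 0.05. Of all tested entries, 68.1% had a positive difference and 13.9% were higher at that limit. FDPS (chromosome 1) encodes farnesyl diphosphate synthase, whose product feeds both sterols and protein prenylation. FDPS read 7.15, 7.25, 7.17 and 7.25 in the empty vector libraries and 7.35, 7.31, 7.38 and 7.41 in the Siglec-XII libraries (log2(TPM + 1), replicates 1 to 4). Every Siglec-XII library was above every empty vector library, by a small margin, and the mean level went from 147 ± 5.13 TPM to 164 ± 4.89 TPM. The log2 difference was 0.16 (SE 0.043, adjusted p = 0.137).

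HMGCS1, on chromosome 5, encodes the cytosolic HMG-CoA synthase. Its values were 6.23, 6.41, 6.14 and 6.22 in empty vector and 6.52, 6.37, 6.49 and 6.37 in Siglec-XII. Empty vector replicate 2 was the highest of its group and lay among the Siglec-XII libraries, the other empty vector libraries lay below all of them, and the difference was 0.19 (SE 0.066, adjusted p = 0.212). MVD, the decarboxylase that makes isopentenyl diphosphate, differed by 0.17 (SE 0.068, adjusted p = 0.257), and Siglec-XII replicate 3 lay within the empty vector range. The other members were closer to the median of all entries. MVK, mevalonate kinase, differed by 0.12 (adjusted p = 0.447), PMVK, phosphomevalonate kinase, by 0.069 (adjusted p = 0.744), IDI1, the isomerase, by 0.073 (adjusted p = 0.555), and ACAT2, the thiolase that makes acetoacetyl-CoA, by 0.045 (adjusted p = 0.760). The groups overlapped in each of these. Single libraries moved the smallest values, with PMVK at 0.0091 without empty vector replicate 1 and at 0.13 without replicate 3, and IDI1 at 0.037 without Siglec-XII replicate 3.

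Squalene and lanosterol formation are the first steps committed to sterols. SQLE, squalene epoxidase, a rate-limiting enzyme of the pathway, read 7.49, 7.59, 7.39 and 7.34 in empty vector and 7.67, 7.59, 7.64 and 7.61 in Siglec-XII. The Siglec-XII libraries lay close together at 197 TPM on average, and empty vector replicate 2 reached their lower end. The difference was 0.17 (SE 0.057, adjusted p = 0.194). LSS, lanosterol synthase, differed by 0.14 (SE 0.064, adjusted p = 0.308), and with the TPM of its second, weak entry added the difference was 0.14 (adjusted p = 0.341). FDFT1, squalene synthase, was near equal, with a difference of 0.024 (95% interval -0.11 to 0.16), which turned negative under quantile normalization, equal upper quartiles, rescaling without mitochondrial and the 100 most abundant entries, removal of the length trend and without Siglec-XII replicate 4.

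Downstream of lanosterol, 7 of the 8 genes had a positive difference (median 0.16), where 68.1% of all tested entries had. At or under an unadjusted p of 0.05 were 4, where 13.9% of all were higher, with 0 past the adjusted test. TM7SF2, a sterol C14 reductase on chromosome 11, had the largest difference of the branch. Its values were 4.67, 4.71, 4.61 and 4.80 in empty vector and 4.90, 4.90, 4.87 and 5.24 in Siglec-XII. The groups did not overlap, and Siglec-XII replicate 4 stood well above its group. The mean level went from 24.9 ± 1.45 TPM to 30.8 ± 4.04 TPM. The difference was 0.28 (SE 0.089, adjusted p = 0.173), and 0.20 without that library. CYP51A1, the lanosterol demethylase, read 5.79, 5.999, 5.76 and 5.75 in empty vector and 6.04, 5.97, 6.13 and 6.02 in Siglec-XII. Empty vector replicate 2 stood apart from its group and lay within the Siglec-XII range. The difference was 0.22 (SE 0.066, adjusted p = 0.168), and 0.27 without that library.

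NSDHL, a C4 demethylase component encoded on chromosome X, differed by 0.18 (adjusted p = 0.208), and EBP, the delta-8 to delta-7 isomerase also on chromosome X, by 0.16 (adjusted p = 0.199). DHCR7, which makes cholesterol from 7-dehydrocholesterol, differed by 0.15 (adjusted p = 0.334), with empty vector replicate 1 far below the other 3 of its group, and by 0.085 without that library. MSMO1, the C4 methyl oxidase, differed by 0.027 and HSD17B7, the 3-keto reductase of the C4 demethylation, by 0.044, and both turned negative under quantile normalization, equal upper quartiles and removal of the length trend. HSD17B7 was 0.010 without empty vector replicate 1. MSMO1 turned negative also under rescaling without mitochondrial and the 100 most abundant entries and without empty vector replicate 1. HSD17B7 has an expressed near-identical pseudogene copy, HSD17B7P2, with a mean of 2.51 in empty vector and 2.24 in Siglec-XII on the log2 scale, and how reads were divided between them was not tested.

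SC5D was the exception of the branch. It encodes the sterol C5 desaturase that acts just before DHCR7, on chromosome 11. Its values were 7.14, 7.19, 7.15 and 7.23 in empty vector and 7.05, 7.03, 7.15 and 7.09 in Siglec-XII. Siglec-XII replicate 3 lay among the empty vector libraries and the other 3 lay below all of them. The difference was -0.097 (SE 0.044, adjusted p = 0.306), which did not pass either limit in the table as deposited. SC5D was at or under the unadjusted limit in 7 alternatives, and without overlap in 5 of them, at -0.16 with quantile normalization and with equal upper quartiles, -0.14 with rescaling without mitochondrial and the 100 most abundant entries, -0.20 with the length trend removed and -0.12 without Siglec-XII replicate 3. The lowest adjusted p among these was 0.101.

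The fatty acid branch had 6 of 7 genes higher, where 68.1% of all tested entries were. The same 6 were at or under an unadjusted p of 0.05, where 13.9% of all were higher. The median difference of the branch was 0.18. In 5 of its genes, among them the chosen ACACA entry, the groups did not overlap, where 9.17% of all were higher without overlap. The adjusted test called 1 gene higher, where 0.34% of all were. SCD, on chromosome 10, was that gene. SCD read 8.23, 8.31, 8.28 and 8.35 in the empty vector libraries and 8.52, 8.47, 8.62 and 8.58 in the Siglec-XII libraries. The groups were separated, with little spread in either. The mean level rose from 313 ± 10.8 TPM to 373 ± 16.7 TPM (SD, n = 4), a log2 difference of 0.25 (SE 0.046, 95% interval 0.15 to 0.36, limma adjusted p = 0.0489). That call sat at the limit: it held in 4 of 20 alternatives and in none of the 8 that left out a library, where the adjusted p ran from 0.0621 to 0.151, while the difference stayed between 0.23 and 0.28.

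ACLY, ATP-citrate lyase, supplies cytosolic acetyl-CoA to both branches and was counted with fatty acid synthesis. Its values were 6.65, 6.87, 6.82 and 6.74 in empty vector and 6.99, 6.97, 6.89 and 7.12 in Siglec-XII. All Siglec-XII libraries lay above the empty vector libraries, replicate 3 only just. The difference was 0.22 (SE 0.064, adjusted p = 0.149). FASN, fatty acid synthase, read 7.37, 7.41, 7.49 and 7.21 in empty vector and 7.46, 7.55, 7.54 and 7.65 in Siglec-XII. The groups overlapped, because Siglec-XII replicate 1 lay below empty vector replicate 3. Its difference was 0.18 (SE 0.065, adjusted p = 0.232), and its mean level went from 165 ± 13.4 TPM to 186 ± 9.86 TPM.

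ACACA encodes acetyl-CoA carboxylase, the rate-limiting enzyme of fatty acid synthesis, and stood on 2 entries of the table. The entry with the higher mean (ENSG00000275176), which was not in the lifted GENCODE annotation and was given no position, read 4.57, 4.46, 4.62 and 4.30 in empty vector and 4.67, 4.83, 4.83 and 4.82 in Siglec-XII. In this entry the groups did not overlap, and Siglec-XII replicate 1 was the lowest of its group. The difference was 0.30 (SE 0.080, adjusted p = 0.130), and 0.34 without that library. The other entry (ENSG00000278540, chromosome 17) differed by -0.012 (adjusted p = 0.959). With the TPM of both added, the difference was 0.16 (SE 0.057, adjusted p = 0.205) and the groups overlapped (5.28 to 5.47 against 5.46 to 5.58), so the value for ACACA depends on how its reads were divided between the entries.

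The desaturases of polyunsaturated fatty acids, neighbours on chromosome 11, showed smaller differences. FADS1, the delta-5 desaturase, read 6.83, 6.86, 6.97 and 6.88 in empty vector and 6.99, 6.99, 7.06 and 7.02 in Siglec-XII. FADS2 read 7.93, 7.99, 7.99 and 8.07 in empty vector and 8.08, 8.10, 8.13 and 8.30 in Siglec-XII. In both genes the groups lay side by side without overlap, and Siglec-XII replicate 4 was the highest library for FADS2. The differences were 0.13 (SE 0.044, adjusted p = 0.199) for FADS1 and 0.16 (SE 0.056, adjusted p = 0.219) for FADS2, the latter 0.11 without that library. ELOVL6, the elongase that extends palmitate to stearate, did not share them. ELOVL6 averaged 55.8 ± 3.77 TPM and 55.5 ± 1.43 TPM in empty vector and Siglec-XII, with a difference of -0.0048 (95% interval -0.13 to 0.12), and -0.11 with the length trend removed.

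Of the SREBP machinery, 4 of 5 genes had a positive difference, where 68.1% of all tested entries had. Groups without overlap were seen in 0 of them, where 9.17% of all were higher and 1.68% lower without overlap. SREBF1 read 5.90, 5.49, 5.91 and 5.98 in empty vector and 5.63, 5.88, 5.94 and 5.81 in Siglec-XII. Empty vector replicate 2 was far below its group, the other libraries overlapped, and the difference was -0.0037 (95% interval -0.25 to 0.24). It was -0.11 without that library and positive when any 1 of 4 other libraries was left out. SREBF2 read 6.42, 6.74, 6.61 and 6.54 in empty vector and 6.65, 6.68, 6.76 and 6.82 in Siglec-XII. Here empty vector replicate 1 was the lowest library, replicate 2 lay among the Siglec-XII libraries, and the difference was 0.15 (SE 0.071, adjusted p = 0.317), or 0.10 without empty vector replicate 1. SREBF1 stood on 1 entry, so SREBP-1a and SREBP-1c, which come from different starts of SREBF1, were not separated.

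SCAP, the escort protein, differed by 0.19 (SE 0.083, adjusted p = 0.301). INSIG1, the retention factor that is itself an SREBP target, averaged 46.6 ± 3.25 TPM and 51.4 ± 3.0 TPM in empty vector and Siglec-XII and differed by 0.14 (adjusted p = 0.328). INSIG2, the less sterol-dependent retention factor, differed by 0.13 (adjusted p = 0.646), and by 0.046 without empty vector replicate 1, 0.052 without Siglec-XII replicate 4 and 0.19 without Siglec-XII replicate 1. The groups overlapped in all 3. In cholesterol transport, NPC1, which exports cholesterol from lysosomes, read 3.79, 3.95, 3.67 and 3.92 in empty vector and 4.14, 3.87, 4.07 and 4.30 in Siglec-XII. Siglec-XII replicate 2 fell among the empty vector libraries and the other 3 were above them, and the difference was 0.26 (SE 0.10, adjusted p = 0.256). STARD4, a cytosolic sterol carrier, differed by 0.026 (adjusted p = 0.910), a value that turned negative under quantile normalization, equal upper quartiles, rescaling without mitochondrial and the 100 most abundant entries, removal of the length trend and without empty vector replicate 1 or 3.

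The branches were then compared library by library, with each gene taken as its deviation from its own mean over the 8 libraries. The mean of the 18 sterol genes was -0.13, 0.020, -0.088 and -0.033 in the empty vector libraries and 0.047, 0.043, 0.059 and 0.087 in the Siglec-XII libraries. Empty vector replicate 2 stood closest to the Siglec-XII group, with 11 of the 18 genes above their own mean against 1, 2 and 6 in the other empty vector libraries and 12 to 14 in the Siglec-XII libraries. The mean of the 7 fatty acid genes was -0.12, -0.056, -0.039 and -0.13 in empty vector and 0.041, 0.065, 0.090 and 0.16 in Siglec-XII. Neither branch overlapped between the groups on this scale, and empty vector replicate 2 was not high for the fatty acid genes, of which 1 of 7 lay above its own mean.

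**Figure D3:**
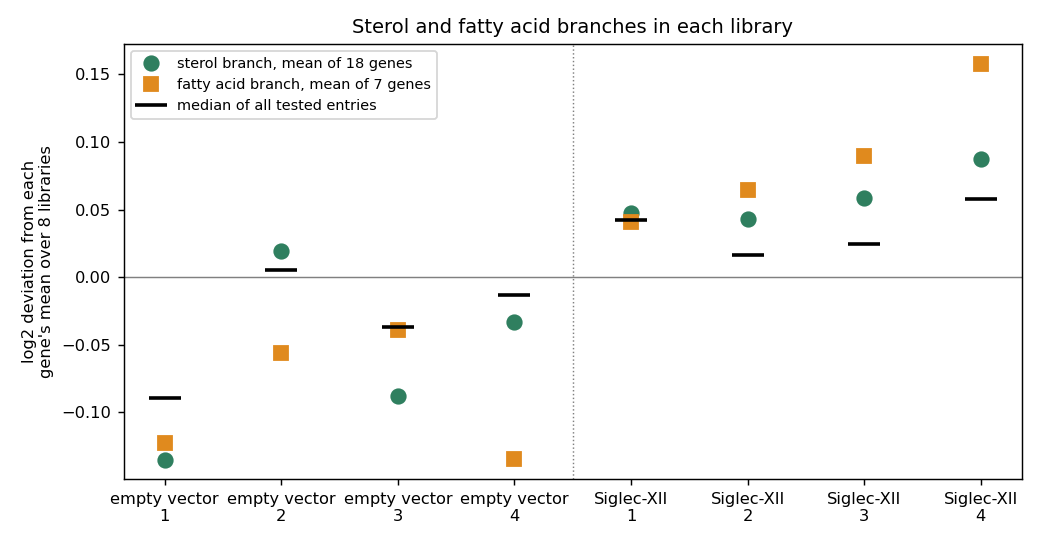
Mean log2 deviation of the 18 sterol genes (circles) and of the 7 fatty acid genes (squares) in each library, from each gene's mean over the 8 libraries, with the median deviation of all tested entries as a bar. The bars also sit higher in the Siglec-XII libraries (0.016 to 0.058) than in the empty vector libraries (-0.089 to 0.0051), and the fatty acid squares lie farthest above them in Siglec-XII replicate 4.

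The median deviation of all tested entries was shifted in the same direction on this scale, at -0.089 to 0.0051 in empty vector and 0.016 to 0.058 in Siglec-XII. After each library's median was subtracted, the group difference was 0.050 for the sterol branch, with groups that overlapped, and 0.11 for the fatty acid branch, where the highest empty vector library (-0.0025) and the lowest Siglec-XII library (-0.0013) were almost level. Summed TPM gave 1501 ± 76.7 in empty vector and 1620 ± 25.4 in Siglec-XII for the sterol genes (ratio 1.08, overlapping), and 1035 ± 26.8 and 1181 ± 48.0 for the fatty acid genes (ratio 1.14, no overlap, SD, n = 4 each).

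The difference between the branches was similar in size to the spread between libraries. The median difference was 0.15 for the sterol genes and 0.18 for the fatty acid genes, 0.030 apart. Within each library the sterol mean minus the fatty acid mean was -0.77 ± 0.071 in empty vector and -0.83 ± 0.032 in Siglec-XII (log2 levels, SD, n = 4 each), and the ranges overlapped (-0.85 to -0.70 against -0.87 to -0.79). The group difference of these values was -0.058, a size between the SDs of the groups. The share of genes at or under an unadjusted p of 0.05 was 44.4% of the sterol genes and 85.7% of the fatty acid genes, against 13.9% of all tested entries that were higher at that limit. The share without overlap was 11.1% and 71.4%, against 9.17% of all that were higher without overlap. The sterol share thus lay near that of all, and the fatty acid share counts the chosen ACACA entry. These shares hold for the table as deposited. Over all 32 genes, 7 were higher without overlap there and 3 with quantile normalization, where 4.64% of all entries were. With equal upper quartiles 4 were, where 4.70% of all entries were. No test was made over the genes, which share libraries and regulators.

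**Figure D4:**
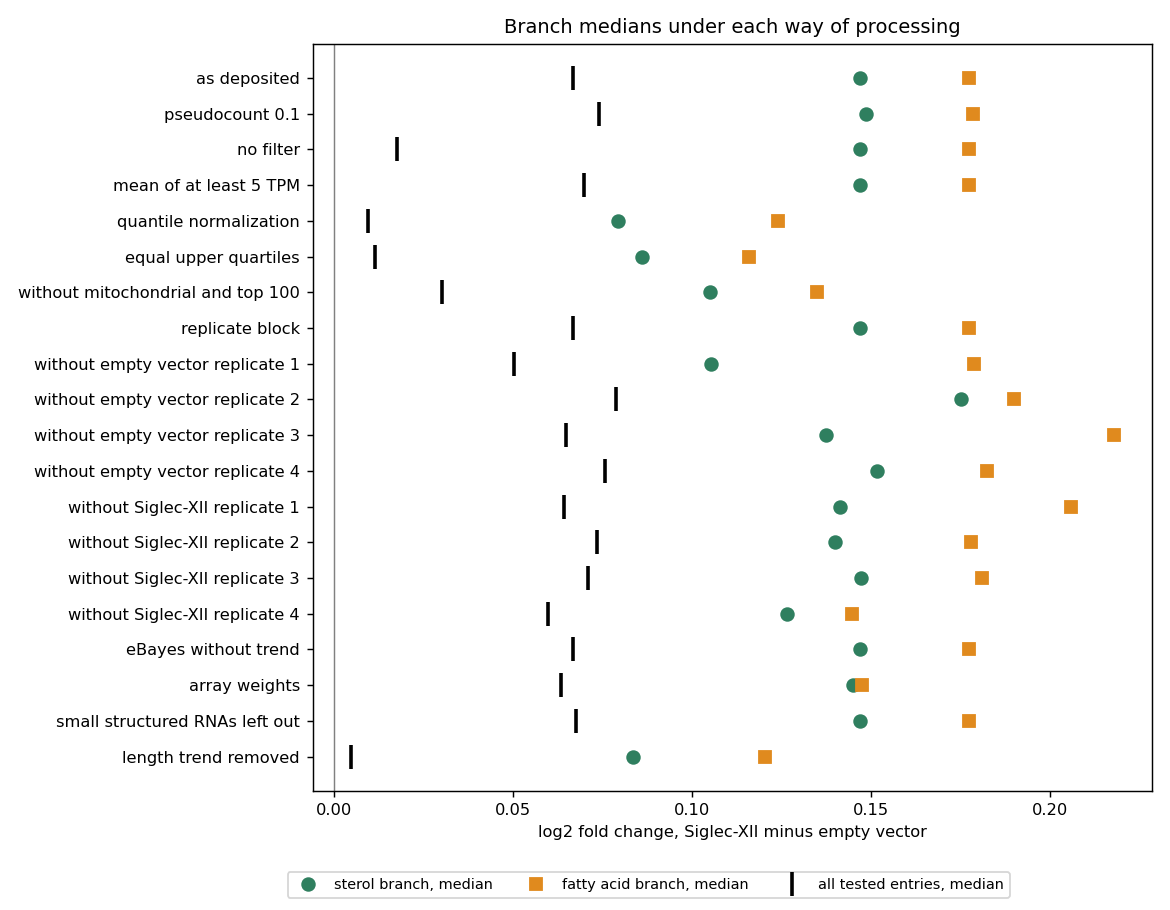
Median log2 difference of the sterol genes (circles), of the fatty acid genes (squares) and of all tested entries (bars) under each way of processing. Both branch medians lie above that of all entries throughout, and the scalings and the removal of the length trend, which bring the bar near 0, also lower both branches.

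Other genes of lipid metabolism were counted in the same fit, as 71 genes in 5 lists, of which 64 passed the filter. None of the 64 passed the adjusted test in either direction, where 0.34% of all tested entries were called higher and 0.308% lower. At an unadjusted p of 0.05 or less 15 were higher and 2 lower, against 13.9% and 2.61% of all. The median difference of the 64 was 0.093. In all tested entries 68.1% had a positive difference, the share to set beside the positive counts of each list below. All 13 genes of SREBP processing and turnover had a positive difference (median 0.098), 3 of them at the unadjusted limit. Among the largest differences of the list were those of FAF2 (0.22, adjusted p = 0.138), of the degradation machinery of the endoplasmic reticulum, and RNF139 (0.17, adjusted p = 0.242), a ubiquitin ligase. Of the 22 tested genes of fatty acid activation, elongation and glycerolipid synthesis, 21 had a positive difference (median 0.11) and 7 were at the unadjusted limit. DGAT2, which makes triacylglycerol, had the largest difference of all 5 lists at a low level.

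DGAT2 read 1.68, 2.14, 1.78 and 1.64 in empty vector and 2.41, 2.30, 2.33 and 2.19 in Siglec-XII. The groups did not overlap, empty vector replicate 2 came closest to the Siglec-XII libraries, and the difference was 0.50 (SE 0.13, adjusted p = 0.129). It passed the adjusted test without that library (0.61, limma adjusted p = 0.0485), where 159 of all 15590 tested entries passed, against 101 with all libraries. Over the 8 fits that left out a library, the adjusted p of DGAT2 ran from 0.0485 to 0.253. SLC25A1, the citrate carrier that supplies ACLY with substrate, differed by 0.24 (adjusted p = 0.238) and ACSL1, a long-chain acyl-CoA synthetase, by 0.24 (adjusted p = 0.185).

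The side branch of non-sterol isoprenoids was mixed. Of its 11 genes 9 had a positive difference (median 0.078), ICMT, the carboxyl methyltransferase of prenylated proteins, differed by 0.18 (adjusted p = 0.137) and PDSS2, a subunit of the synthase of the ubiquinone side chain, by 0.16 (adjusted p = 0.525), or 0.091 without empty vector replicate 1 and 0.10 without Siglec-XII replicate 1. COQ2, which joins that side chain to the ring of ubiquinone, was lower, with 4.45, 4.43, 4.49 and 4.47 in empty vector and 4.18, 4.16, 4.36 and 4.19 in Siglec-XII. The groups did not overlap and the difference was -0.24 (SE 0.063, adjusted p = 0.130).

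Genes of cholesterol esterification, transport and the liver X receptor had a median difference of 0.026 over 13 tested genes, with 10 positive. CYP27A1, the sterol 27-hydroxylase, differed by 0.22 (adjusted p = 0.381) at a level close to the filter, NR1H2, liver X receptor beta, by 0.19 (adjusted p = 0.261), and MYLIP, a ubiquitin ligase induced by that receptor, by 0.18 (adjusted p = 0.249). Of the genes that make steroid hormones from cholesterol, 5 of 8 passed the filter and 3 of these were positive. CYP19A1, aromatase, differed by -0.35 (adjusted p = 0.479), and its value without empty vector replicate 2 was -0.11. HSD17B1, an estradiol-forming reductase, differed by 0.17 (adjusted p = 0.183) and FDXR, ferredoxin reductase, by 0.080 (adjusted p = 0.654), the latter between 0.033 without Siglec-XII replicate 4 and 0.13 without empty vector replicate 4.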

How the data were processed

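RNA-seq libraries of 8 Caco-2 samples, 4 per group as the labels give them, were examined. The authors quantified the reads with kallisto (version 0.45.0 in the submitters' processing notes) on human build hg19 and deposited log2(TPM + 1) values, 1 column per library and 63816 entries. The labels name a kit for total RNA depleted of ribosomal RNA and the study's methods a kit for mRNA. Each column summed to the same total, so depth is unknown and no counting interval was given.

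The table was fitted whole with limma 3.58.1 in R 4.3.3 (lmFit, eBayes with trend) over the 15590 entries with at least 1 TPM in at least 4 libraries, after tests on simulated data. In these the adjusted test recovered 47% of true log2 differences of 0.5 in size and 78% of those of 1. A gene that did not pass it can therefore still differ. Adjusted p-values are Benjamini-Hochberg over these entries. Differences are on the log2(TPM + 1) scale, which understates changes of low genes. SIGLEC12 was compared by an exact permutation test. Gene positions came from GENCODE 44 lifted to GRCh37 and promoter windows from RefSeq. Named were all 32 genes, SIGLEC12, marker genes and, from each list of related genes, those past the adjusted test and the 3 with the largest absolute difference. A gene that this rule names is not reported here. The genes and lists were chosen with earlier results of these data known. The alternatives were other pseudocounts, filters, scalings, fits, entry sums, branch summaries and each library left out. Removing small structured RNAs or the length trend was added after seeing the data. Figures were drawn with matplotlib 3.10.9 in Python 3.11.15.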

Additional observations from a re-analysis of the deposited data

Results flagged for a closer look

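Each of 74 groups of 4 libraries, the levels of the 32 genes, of SIGLEC12 and of the branches in each group, was searched for a library far from the other 3. In 6 of them the gap to the nearest library, as a share of the group's range, was above Dixon's critical value for 4 samples, where chance flags about 5% of groups. Empty vector replicate 2 was high for FDFT1 (6.38, the others 6.30 to 6.31) and CYP51A1 (5.999, the others 5.75 to 5.79) and low for SREBF1 (5.49, the others 5.90 to 5.98), all on the log2(TPM + 1) scale. Empty vector replicate 1 was low for DHCR7 (7.58, the others 7.83 to 7.87). In the Siglec-XII group, replicate 4 was high for TM7SF2 (5.24, the others 4.87 to 4.90) and replicate 1 was low for the chosen ACACA entry (4.67, the others 4.82 to 4.83). Without the library named, the difference between the groups went from 0.024 to 0.043 for FDFT1, from 0.22 to 0.27 for CYP51A1, from -0.0037 to -0.11 for SREBF1, from 0.15 to 0.085 for DHCR7, from 0.28 to 0.20 for TM7SF2 and from 0.30 to 0.34 for ACACA. The cause was not tested.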

How the results depend on the processing

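The median of the sterol branch lay below that of the fatty acid branch in every alternative, by 0.0024 with array weights to 0.081 without empty vector replicate 3. The sign of a gene's difference was the same in 610 of 640 pairs of gene and alternative, and 24 of 32 genes kept it throughout. The count past the adjusted test was 0 with a pseudocount of 0.1, no filter, equal upper quartiles, rescaling without mitochondrial and the 100 most abundant entries, the replicate block, no trend, small structured RNAs left out and the length trend removed, and 0 to 0 with each library left out. At the unadjusted limit, 8 genes were higher with quantile normalization (7.02% of all entries), 6 with equal upper quartiles (7.20%) and 9 with the length trend removed (6.67%). SC5D was the 1 lower with no filter (1.94% of all entries), quantile normalization (5.63%), equal upper quartiles (5.68%) and rescaling (4.33%), and 1 of 2, with ELOVL6, with the length trend removed (6.01%). Without overlap, 3 genes were higher with quantile normalization (4.64%), 4 with equal upper quartiles (4.70%), 3 with rescaling (5.78%) and 4 with the length trend removed (4.39%), and 1, SC5D, was lower in each of these 4 (3.23%, 3.49%, 2.66% and 3.62%). With each library left out, 12 to 19 genes were higher (10.1% to 16.7% of all entries) and 0 to 1 lower (2.37% to 3.30%) at the unadjusted limit. In the same fits 7 to 14 were higher (10.7% to 16.9%) and 0 to 1 lower (2.21% to 3.09%) without overlap. The adjusted test was passed by 0 to 1 related genes, where 49 to 159 of all 15590 tested entries passed it.

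The values that turned were, with quantile normalization, ACAT2 -0.012, FDFT1 -0.045, MSMO1 -0.030, HSD17B7 -0.022 and STARD4 -0.039, with equal upper quartiles, ACAT2 -0.016, FDFT1 -0.037, MSMO1 -0.035, HSD17B7 -0.015 and STARD4 -0.034, and with rescaling, FDFT1 -0.018, MSMO1 -0.016 and STARD4 -0.016. With the length trend removed they were ACAT2 -0.0028, IDI1 -0.0047, FDFT1 -0.035, MSMO1 -0.033, HSD17B7 -0.020 and STARD4 -0.066. With each library left out, ACAT2 ran from -0.011 to 0.087, MSMO1 from -0.047 to 0.087, STARD4 from -0.042 to 0.098, FDFT1 from -0.021 to 0.062, SREBF1 from -0.11 to 0.057 and ELOVL6 from -0.032 to 0.040. The cause was not tested.

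Libraries of the same number correlated at 0.040, 0.028, -0.074 and 0.059 in their deviations from the group means, so the numbers were not taken as pairs. With the number as a replicate block, 0 genes passed the adjusted test. Depth is unknown, the study's own count test was not run, and with 4 libraries per group the 95% intervals, such as that of INSIG2, spanned differences of the size seen elsewhere in the set.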
